A study of Homo sapiens with 6 samples.

Results

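Amino acid transporters were examined in HSC-4 cells, a human cell line established from an oral squamous cell carcinoma, after treatment with DAPT. DAPT inhibits γ-secretase, the enzyme complex whose cut sets the signaling part of Notch receptors free. The 10 genes were chosen by symbol as well-known plasma membrane carriers of amino acids, with earlier results of these data known. All 10 were found among the 58884 genes of each count file. Positions below are those of GRCh38. RNA was sequenced from 3 cultures with 50 µM DAPT for 24 h and from 3 control cultures. The methods name 0.5% DMSO as the vehicle of the control, whereas the sample labels give only the word control. The series' design text names normal growth medium and no vehicle, and the count headers carry the letters GM, which are not explained. If the controls received growth medium alone, the effect of the vehicle and that of DAPT cannot be told apart. Nothing states that the replicates came from separate experiments, so the p-values measure only the spread between these libraries.

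Cells take up amino acids through membrane carriers of several solute carrier families, each with its own range of substrates. Some carriers are heteromers in which a light chain moves the substrate and a heavy chain brings it to the cell surface. When amino acids are short or the endoplasmic reticulum is stressed, translation of the transcription factor ATF4 rises, and several carrier genes are known targets of ATF4. In squamous carcinoma, uptake of leucine, glutamine and cystine is known to feed growth, mTORC1 signaling and glutathione synthesis.

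The libraries held between 12276313 and 16317672 counts, at which 3 reads, taken as the smallest signal, correspond to between 0.184 and 0.244 CPM, the counts of a gene per 1000000 counts of its library. The Notch target *HES1* fell (log2 fold change -0.77), as did *NRARP* (-1.43) and *HEY1* (-1.98). Of the squamous epithelial markers, *KRT5* was at 2635, 2757 and 2710 CPM in the control libraries, while its usual partner *KRT14* was at no more than 3.54 CPM. Of 10 such markers, 7 fell (18.0% of all tested genes) and 2 rose (17.2%) with DAPT, and the part of this in the results below was not tested. Control replicate 1 stood apart from the other libraries. In it, 15 genes with at least 10 CPM were at least 10 times higher than in every other library, among them *COL1A2*, *COL3A1*, *DCN* and *THY1*. The summed level of 7 fibroblast markers was 566 CPM in control replicate 1 and between 49.9 and 58.4 CPM in the other 5 libraries. Markers of immune cells summed to between 8.92 and 12.9 CPM in all libraries, nearly all of it *CD14*, and those of endothelium to at most 1.37 CPM. The part of these transcripts in the results was not tested, and the values without control replicate 1 are given below.

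Of the 10 transporters, 6 rose with DAPT and 0 fell, with p-values from the quasi-likelihood test of edgeR, adjusted by Benjamini-Hochberg over 15001 genes and called below 0.05. Among all tested genes, 17.2% rose and 18.0% fell, 35.2% in all. The 6 were *SLC7A11*, *SLC6A9*, *SLC1A5*, *SLC7A5*, *SLC38A1* and *SLC3A2*, in the order of their fold changes. *SLC7A1*, *SLC1A4*, *SLC38A2* and *SLC43A1* did not pass the test. All 10 passed the filter on low counts, and their median log2 fold change was 0.24, beside a median of 0.01 for all tested genes. Only *SLC7A11* reached a 2-fold change, as did 0.600% of tested genes in this direction and 1.77% in the other. In 5 of the 10 genes, every DAPT library lay above every control library, which was the case for 23.6% of tested genes. In the other direction the groups were apart in 0 of the 10 and in 22.7% of tested genes, and in either direction in 5 of the 10 and 46.3%. These are levels of mRNA in bulk samples, in which fewer cells of a type and less RNA per cell cannot be told apart. Scaling by library size alone changed the split of all called genes from 2574 higher and 2707 lower to 3445 higher and 2156 lower, and the same count of 6 transporters rose.

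Without control replicate 1, 6 transporters also rose, but 1 of them was another gene. *SLC3A2* no longer passed (log2 fold change 0.19, adjusted p = 0.193, edgeR), and *SLC38A2* did (0.11, adjusted p = 0.0464, edgeR). The range of adjusted p-values over all alternatives was 8.45e-05 to 0.193 for *SLC3A2* and 0.0464 to 0.672 for *SLC38A2*. The log2 fold changes of the other 5 were then 1.64 for *SLC7A11*, 0.77 for *SLC6A9*, 0.53 for *SLC1A5*, 0.30 for *SLC7A5* and 0.26 for *SLC38A1*, each with an adjusted p-value under 0.05.

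**Figure D1:**
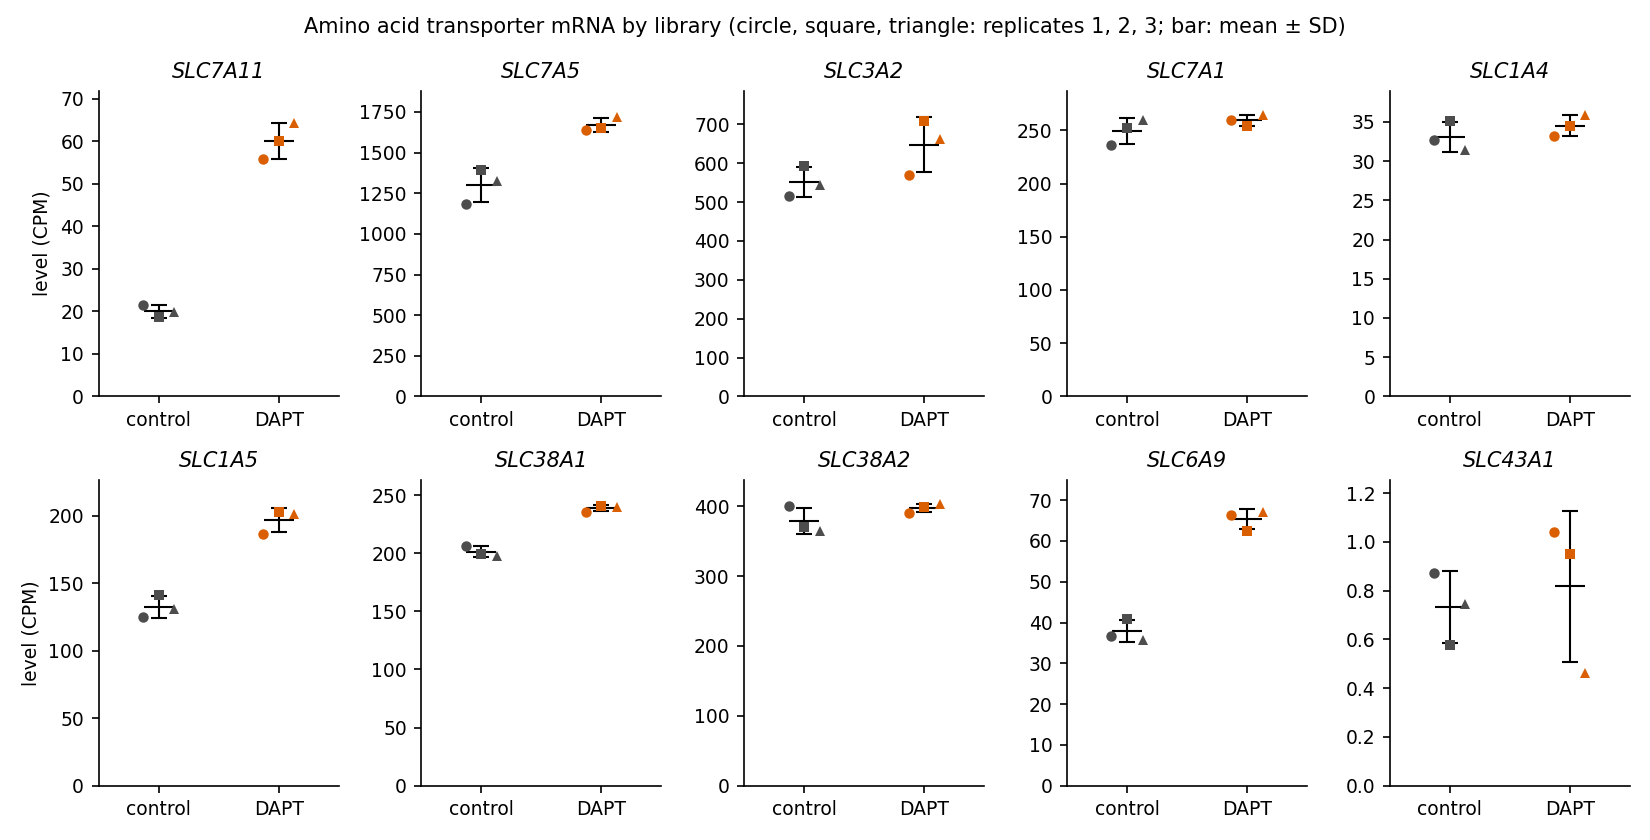
Level of each transporter in CPM (counts per 1000000, vertical axis from 0) in the control and DAPT libraries. Symbols mark replicates 1, 2 and 3, and bars give the mean and SD of 3 libraries. The groups are apart in *SLC7A11*, *SLC7A5*, *SLC1A5*, *SLC38A1* and *SLC6A9*, and overlap in the other 5 genes.

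The stretches of sequence below are shown because several of these genes are known targets of ATF4, which binds C/EBP-ATF response elements (CARE). The promoter windows of RefSeq (GRCh38.p14, 250 bases before to 50 bases after each annotated start) held 16 windows for 9 of the 10 genes. *SLC7A11* had no entry. The core TGATGNAA, or TTNCATCA on the other strand, was found in 5 of the 16 windows, each in a different gene, and in 3.62% of all 35116 windows. Of the 5 genes, *SLC1A5*, *SLC38A1* and *SLC3A2* rose with DAPT, while *SLC7A1* and *SLC1A4* did not pass the test. The windows of *SLC6A9* and *SLC7A5*, which rose, held no match. In the following 30 bases of each gene's own strand, capitals mark the match.
*SLC1A5*: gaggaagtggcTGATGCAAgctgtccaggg
*SLC1A4*: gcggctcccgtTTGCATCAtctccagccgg
*SLC38A1*: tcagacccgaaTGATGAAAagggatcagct
*SLC7A1*: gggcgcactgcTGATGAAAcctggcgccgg
*SLC3A2*: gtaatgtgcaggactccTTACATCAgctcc

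These lie at chr19:46784893-46784922 (*SLC1A5*, minus strand), chr2:64989381-64989410 (*SLC1A4*, plus strand), chr12:46266502-46266531 (*SLC38A1*, minus strand), chr13:29595663-29595692 (*SLC7A1*, minus strand) and chr11:62881719-62881748 (*SLC3A2*, plus strand). By GENCODE release 44, the matches fall in untranslated exons of *SLC1A5*, *SLC1A4* and *SLC7A1*, in a coding exon of *SLC3A2* and in an intron of *SLC38A1*. Their first bases lie 97, 7 and 4 bases before an annotated start in *SLC1A5*, *SLC1A4* and *SLC38A1*. In *SLC7A1* and *SLC3A2* they are bases 8 and 38 counted from an annotated start. The starts used for *SLC1A5*, *SLC1A4*, *SLC38A1* and *SLC3A2* lie inside the gene spans given below. These windows are therefore not those of the outermost starts.

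The antioxidant response element, bound by NRF2, was searched as TGACNNNGC and, on the other strand, GCNNNGTCA. It occurred in 4 of the 16 windows, in *SLC3A2*, *SLC7A1*, *SLC7A5* and *SLC1A5*, and in 13.3% of all windows. None of these overlapped a CARE match. Of the 4 genes, *SLC3A2*, *SLC7A5* and *SLC1A5* rose with DAPT, while *SLC7A1* did not pass the test. The windows of *SLC6A9* and *SLC38A1*, which rose, held no match. By GENCODE release 44, the matches fall in an untranslated exon of *SLC7A5*, a coding exon of *SLC1A5*, an intron of *SLC3A2* and upstream of *SLC7A1*. The match of *SLC7A5* (chr16:87869490-87869519, minus strand), the most abundant of the transporters, and that of *SLC3A2* (chr11:62881652-62881681, plus strand), its heavy chain, are shown.
*SLC7A5*: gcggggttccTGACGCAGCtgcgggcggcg
*SLC3A2*: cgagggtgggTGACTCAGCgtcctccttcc

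*SLC7A11* (chromosome 4, 138164097 to 138242349) encodes xCT, the light chain that exchanges intracellular glutamate for extracellular cystine. Its level was 21.5, 18.6 and 19.8 CPM in the control libraries and 55.7, 60.1 and 64.2 CPM in the DAPT libraries. The lowest DAPT library was thus more than double the highest control. The rise was 3.00-fold (95% interval 2.67 to 3.36), a log2 fold change of 1.58 with a standard error of 0.08 (adjusted p = 1.28e-12, edgeR). Only 20 of the 15001 tested genes had a larger log2 fold change.

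*SLC7A5* (chromosome 16, 87830023 to 87869507) encodes LAT1, the light chain that carries leucine and other large neutral amino acids. It was at 1184, 1393 and 1328 CPM in the control libraries and at 1640, 1654 and 1716 CPM with DAPT. The groups did not overlap, and control replicate 1 was the lowest library. The rise was 1.28-fold (95% interval 1.19 to 1.39, adjusted p = 2.74e-05, edgeR). The pseudogenes *SLC7A5P1* and *SLC7A5P2* held at most 4 counts in any library, but reads shared between them and *SLC7A5* would have been left out of the counting, so its level is uncertain to that extent.

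*SLC3A2* (chromosome 11, 62856102 to 62888875) encodes the CD98 heavy chain, which pairs with both of these light chains. The control libraries held 517, 593 and 544 CPM and the DAPT libraries 570, 709 and 663 CPM. DAPT replicate 1 lay below control replicate 2, so the groups overlapped. The change was 1.18-fold (95% interval 1.05 to 1.31, adjusted p = 0.0272, edgeR), the smallest of those that passed. Leaving out any 1 of 4 libraries (control replicates 1 and 3 and DAPT replicates 2 and 3) ended this call. The log2 fold change was then 0.19 and 0.22 without these controls and 0.16 and 0.22 without these DAPT libraries, with adjusted p-values of 0.193, 0.0839, 0.0951 and 0.0804 (edgeR).

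*SLC43A1* (chromosome 11, 57484534 to 57515780) encodes LAT3, a carrier of large neutral amino acids that needs no heavy chain. It was barely detected, with between 6 and 16 counts per library and at most 1.04 CPM. Its log2 fold change of 0.17 had a 95% interval from -0.62 to 0.96. This wide interval holds changes in both directions, so at these counts it is not settled whether the gene changed.

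Of the carriers of small neutral amino acids, *SLC1A5* (chromosome 19, 46774883 to 46788594), which encodes the glutamine exchanger ASCT2, rose and *SLC1A4* (chromosome 2, 64988477 to 65023865), which encodes its relative ASCT1, did not pass the test. *SLC1A5* was at 125, 141 and 131 CPM in the control libraries and at 187, 203 and 202 CPM with DAPT, without overlap. This was a 1.49-fold rise (95% interval 1.38 to 1.61, adjusted p = 4.01e-08, edgeR). Genes on the opposite strand cover 23.8% of its exonic bases, and the counting used the strand of the reads. *SLC1A4* was at 32.6, 35.2 and 31.5 CPM against 33.2, 34.4 and 35.9 CPM, and the 95% interval of its log2 fold change ran from -0.09 to 0.21.

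*SLC38A1* and *SLC38A2* encode the sodium-coupled carriers SNAT1 and SNAT2 of system A and lie on the same strand of chromosome 12, 88.2 kb apart. *SLC38A1* (46183063 to 46270017) was at 207, 199.7 and 198 CPM in the control libraries and 236, 241 and 239.6 CPM with DAPT. This spread within groups was narrow, and the 1.18-fold rise (95% interval 1.11 to 1.27, adjusted p = 3.49e-04, edgeR) was without overlap. *SLC38A2* (46358188 to 46372773) was at 400.5, 370.3 and 365 CPM against 391, 398 and 403 CPM, and its log2 fold change of 0.07 had a 95% interval from -0.03 to 0.17. Control replicate 1 was the highest control library for this gene, and above 2 of the 3 DAPT libraries.

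*SLC6A9* (chromosome 1, 43991500 to 44031467) encodes the glycine transporter GlyT1. It was at 36.8, 40.9 and 35.8 CPM in the control libraries and at 66.4, 62.5 and 67.1 CPM with DAPT. Its rise of 1.73-fold (95% interval 1.57 to 1.90, adjusted p = 7.66e-09, edgeR) was second to that of *SLC7A11*. *SLC7A1* (chromosome 13, 29509414 to 29595688) encodes CAT1, which carries arginine and lysine. It was at 236, 252 and 259.8 CPM against 259, 254 and 265 CPM. The 95% interval of its log2 fold change ran from -0.05 to 0.16, and the groups overlapped.

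**Figure D2:**
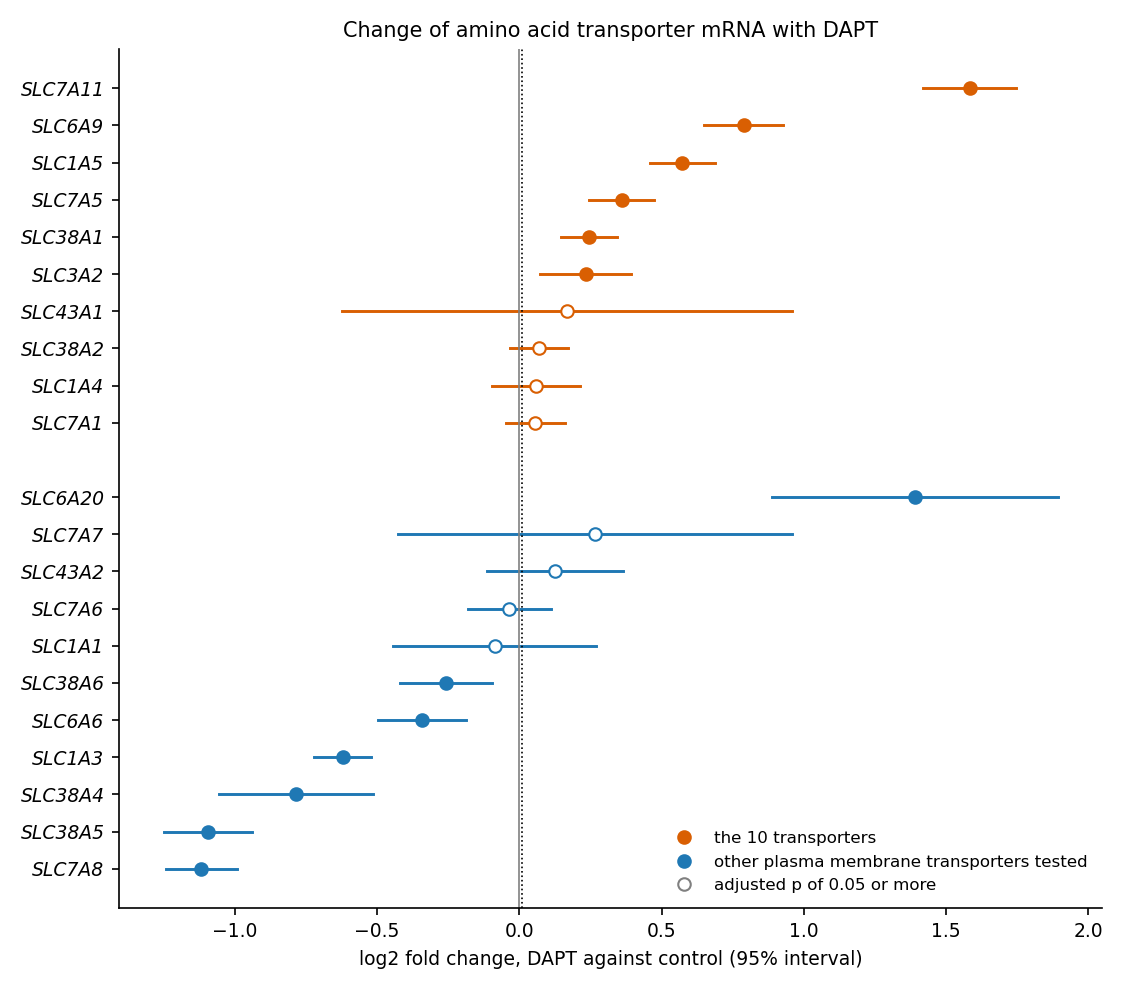
Log2 fold change of DAPT against control (horizontal axis) with its 95% interval for the 10 transporters (orange) and for the 11 other plasma membrane transporters that were tested (blue), with open circles where the adjusted p was 0.05 or more. The dotted line is the median of all tested genes, 0.01. Of the orange points, 6 are filled and lie to the right of 0, whereas 6 of the 7 filled blue points lie to the left.

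Levels of different genes were compared per length, as CPM per kilobase of annotated exon (RPKM). Exons that these cells may not use count toward the length. *SLC7A5* was highest, at 273 ± 22.4 RPKM (SD, n = 3) in the control and 350.5 ± 8.55 RPKM with DAPT. *SLC3A2* followed with 106 ± 7.44 and 125 ± 13.7 RPKM. In the control libraries the order was then *SLC38A2*, *SLC1A5*, *SLC7A1*, *SLC38A1*, *SLC6A9*, *SLC1A4*, *SLC7A11* and *SLC43A1*, without overlap between any of these neighbours. With DAPT, the ranges of *SLC1A5* (59.1 ± 2.65 RPKM) and *SLC38A2* (61.0 ± 0.937 RPKM) overlapped, although *SLC38A2* was above *SLC1A5* within each library, by 60.01 to 56.1, 61.2 to 60.8 and 61.9 to 60.5 RPKM. *SLC7A11*, which was below *SLC1A4* in every control library (2.07 ± 0.149 against 4.77 ± 0.272 RPKM), was above it in every DAPT library (6.22 ± 0.441 against 4.97 ± 0.194 RPKM). *SLC43A1* was lowest in both groups, at 0.208 ± 0.0418 and 0.232 ± 0.0883 RPKM.

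**Figure D3:**
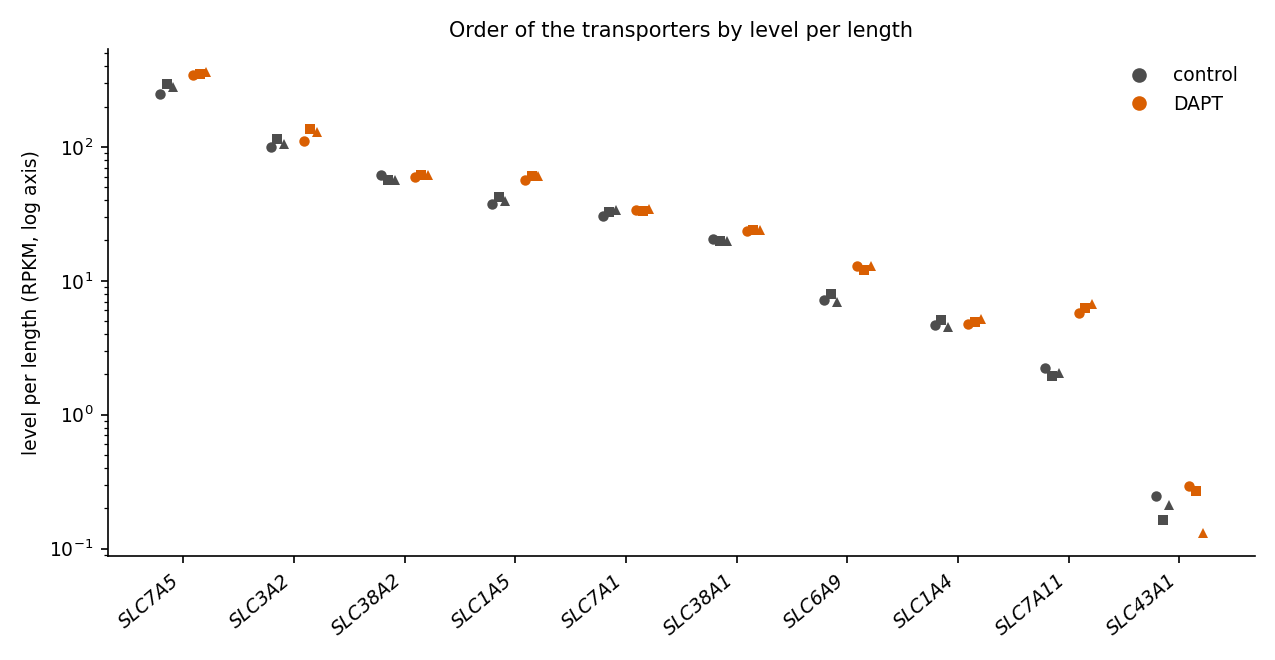
Level per length of each transporter (RPKM, log axis) in the control (grey) and DAPT (orange) libraries, in the order of the control means, with 1 symbol per library. The levels run from 360 RPKM for *SLC7A5* to 0.131 RPKM for *SLC43A1*, and the orange points of *SLC7A11* pass those of *SLC1A4*.

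Summed per length, the 10 transporters were at 513, 574 and 546.5 RPKM in the control libraries and at 651, 687 and 694 RPKM with DAPT. The sum was thus higher in each DAPT library than in any control library. *SLC7A5* made up 50.1% ± 1.46 (SD, n = 3) of the sum in the control and 51.8% ± 1.16 with DAPT. The share of *SLC1A5* was 7.30% ± 0.0828 and 8.73% ± 0.123, while that of *SLC38A2* was 10.7% ± 1.12 and 9.01% ± 0.174. *SLC7A11*, which had the largest fold change, made up 0.382% ± 0.0492 and 0.918% ± 0.0373.

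Ratios of partner genes within a library do not depend on the scaling between libraries. Between 3 and 3 libraries, an exact permutation test cannot give a two-sided p below 0.1, so the ratios are described without a test. The ratio of *SLC7A5* to its heavy chain *SLC3A2* was 2.49, 2.56 and 2.65 in the control libraries and 3.13, 2.53 and 2.81 with DAPT, and the groups overlapped. The ratio of *SLC7A11* to *SLC3A2* was 0.0223, 0.0169 and 0.0195 in the control libraries and 0.0525, 0.0455 and 0.0520 with DAPT. Each DAPT library was above each control library. The same held for *SLC1A5* over *SLC1A4*, at 8.34 ± 0.352 and 11.9 ± 0.314 (SD, n = 3), and for *SLC38A1* over *SLC38A2*, at 0.346 ± 0.00949 and 0.391 ± 0.00341.

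**Figure D4:**
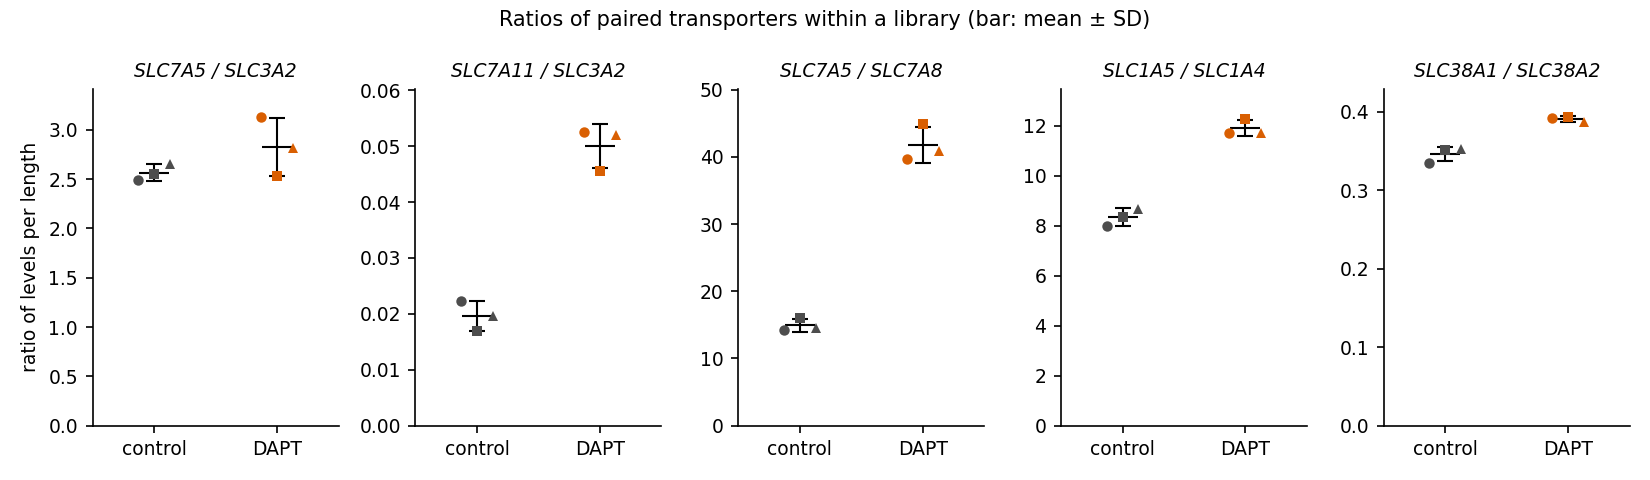
Ratio of the levels per length of 5 pairs of transporters within each library (vertical axes from 0), with symbols for replicates 1, 2 and 3 and bars for the mean and SD of 3 libraries. The groups overlap for *SLC7A5* over *SLC3A2* and are apart for the other 4 pairs. The widest separation is that of *SLC7A5* over *SLC7A8*, with means of 14.96 and 41.8.

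Among other plasma membrane transporters of amino acids, more fell than rose. Of 33 such genes, 22 had too few counts to be tested, with at most 12 in any library. Of the 11 tested, 6 fell and 1 rose, beside 18.0% and 17.2% of all tested genes, with a median log2 fold change of -0.26. *SLC7A8*, which encodes LAT2, the other light chain for large neutral amino acids, fell from 109 ± 4.81 to 50.3 ± 3.47 CPM (SD, n = 3 each; log2 fold change -1.12, adjusted p = 3.59e-12, edgeR). The ratio of *SLC7A5* to *SLC7A8* per length was 14.2, 16.04 and 14.6 in the control libraries and 39.7, 44.9 and 41.0 with DAPT.

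*SLC38A5*, which encodes the glutamine carrier SNAT5, fell from 53.6 ± 3.04 to 25.1 ± 1.46 CPM (log2 fold change -1.09, adjusted p = 2.09e-10, edgeR). *SLC38A4*, the next gene of the family beyond *SLC38A2* on chromosome 12, 392.0 kb away, had a log2 fold change of -0.79 (adjusted p = 7.07e-05, edgeR). *SLC1A3*, which encodes a glutamate and aspartate transporter of the family of *SLC1A5*, fell from 514 ± 16.8 to 334 ± 13.1 CPM (log2 fold change -0.62, adjusted p = 2.09e-09, edgeR). The remaining decreases were those of *SLC6A6* (-0.34), the taurine transporter, and *SLC38A6* (-0.26), both named after their values were seen. *SLC6A20*, a carrier of proline and related amino acids in the family of *SLC6A9*, rose from 1.12 ± 0.161 to 2.96 ± 0.284 CPM (log2 fold change 1.39, adjusted p = 1.18e-04, edgeR). Its level was low, with between 13 and 42 counts per library. Each of these 7 genes was without overlap between the groups, as were 46.3% of all tested genes, and the same numbers rose and fell without control replicate 1.

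Genes of the amino acid response, the pathway from the eIF2α kinases to ATF4 and its targets, were described with the transporters. Of 20 genes, all tested, 15 rose and 0 fell, beside 17.2% and 18.0% of all tested genes, with a median log2 fold change of 0.51. *ATF4* itself went from 147 ± 5.07 to 210.1 ± 11.1 CPM (SD, n = 3 each; log2 fold change 0.51, adjusted p = 1.15e-07, edgeR). Its target *ASNS*, which encodes asparagine synthetase, went from 1.56 ± 0.475 to 6.11 ± 0.732 CPM (1.97, adjusted p = 1.7e-07, edgeR). In the annotation of the count files, another gene on the same strand shares 49.3% of the exonic bases of *ASNS*. Reads in both genes are left out of such counting, so the level of *ASNS* is uncertain and may be understated. The log2 fold changes of *CHAC1*, which encodes an enzyme that breaks down glutathione, of the pseudokinase gene *TRIB3* and of *DDIT3*, which encodes CHOP, were 2.07, 1.81 and 1.25. Without control replicate 1, 13 of the 20 rose.

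Cystine brought in by xCT is reduced to cysteine and used for glutathione. A wider list held 14 genes of cysteine and glutathione metabolism and its regulators, not only of these steps. Of these genes, 12 were tested, 4 rose and 3 fell, with a median log2 fold change of 0.06. Together these are 7 of 12 called, beside 35.2% of all tested genes (17.2% higher and 18.0% lower). *CTH*, which encodes an enzyme that makes cysteine from cystathionine, rose from 2.14 ± 0.167 to 4.21 ± 0.332 CPM (SD, n = 3 each; log2 fold change 0.99, adjusted p = 3.06e-04, edgeR). The thioredoxin reductase gene *TXNRD1* rose from 341 ± 15.9 to 508 ± 4.63 CPM (0.57, adjusted p = 5.83e-09, edgeR), and *CSAD* (0.36) and *GPX4* (0.28) also rose. *GGT1* (-1.03), *GGCT* (-0.46) and the glutathione reductase gene *GSR* (-0.22) fell. Other genes on the same strand share 56.9% of the exonic bases of *GGT1* and 27.7% of those of *GGCT*. The levels of these genes are therefore uncertain in the same way as that of *ASNS*. *GCLC* and *GCLM*, the subunits of the enzyme that limits glutathione synthesis, had log2 fold changes of 0.08 and -0.02 and did not pass the test. Both were named after their values were seen. Their 95% intervals, from -0.04 to 0.20 and from -0.14 to 0.10, lay below that of *SLC7A11*.

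**Figure D5:**
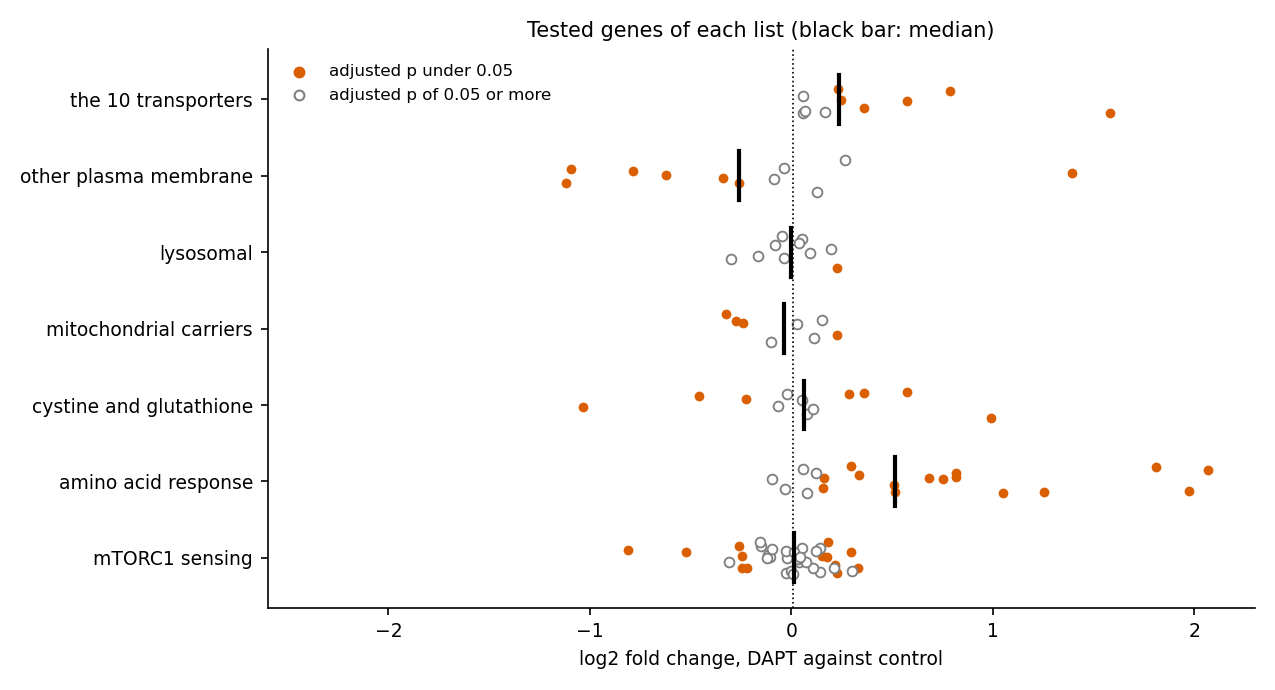
Log2 fold change of DAPT against control (horizontal axis) of the tested genes of each list, with filled points for an adjusted p under 0.05, open points for the others and a black bar for the median of the list. The dotted line is the median of all tested genes, and vertical scatter within a row has no meaning. The bars of the 10 transporters (0.24) and of the amino acid response (0.51) lie to the right of the dotted line, and that of the other plasma membrane transporters (-0.26) to the left.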

How the data were processed

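RNA from 6 libraries was sequenced by the authors as 75-base single-end reads, which they trimmed with Trim Galore, mapped to GRCh38 with HISAT2 and counted per gene with featureCounts 1.6.3 (exons, stranded, Ensembl release 96). The authors deposited raw read counts. Reads with several alignments, or in several genes, are left out by this program unless set otherwise. The submitters' processing notes also list HTSeq and DESeq2, and the paper names edgeR.

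Groups and replicate numbers came from the sample labels. Counts were compared in R 4.3.3 by the quasi-likelihood test of edgeR 4.0.16 (robust fit, TMM factors) after its low-count filter set to 10, and Benjamini-Hochberg adjustment over 15001 genes. Standard errors and 95% intervals come from the test statistic. CPM and RPKM are TMM-normalized. The 95% intervals cover the spread between libraries, and floors of 3 counts cover counting error only. Symbols for 58472 Ensembl IDs came from a GENCODE table.

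The transporters and lists were chosen with earlier results of these data known. Named genes were the 10 transporters, *ATF4*, *TRIB3*, *ASNS*, *CHAC1* and *DDIT3*, the Notch targets *HES1*, *HEY1* and *NRARP*, and up to 4 called genes per list and direction. Others are marked where named. Lists were described by counts and medians. The procedure was tested on simulated counts. Alternatives were DESeq2 1.42.0, limma-voom (limma 3.58.1), a likelihood ratio test, a fit that is not robust, 3 other scalings, 2 other filters, an adjusted p under 0.01, a replicate block and each library left out.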

Additional observations from a re-analysis of the deposited data

How the results depend on the processing

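The 6 increases numbered 5 or 6 under every alternative tried, and no transporter passed the test as lower in any. *SLC7A11*, *SLC7A5*, *SLC1A5*, *SLC38A1* and *SLC6A9* rose in all 17 fits or thresholds. With an adjusted p under 0.01, *SLC3A2* (log2 fold change 0.23, adjusted p = 0.0272, edgeR) was no longer called. With 1 library left out, its log2 fold change lay between 0.16 and 0.32, that of *SLC38A2* between 0.038 and 0.11, and that of *SLC43A1* between -0.051, without DAPT replicate 1, and 0.43. The cause was not tested. DESeq2 gave no adjusted p for *SLC43A1*, and a minimum of 10 counts in every library removed it. The count of other plasma membrane transporters that fell was 5 or 6, and 1 rose in each alternative. Less stable were the called genes of other lists. The mTORC1 genes that rose numbered between 2 and 10 (7 as reported). Their count was 2 with DESeq2, with an adjusted p under 0.01 or without control replicate 3. It was 3 without DAPT replicate 2, 4 without DAPT replicate 3 and 10 with library size alone. The lysosomal transporters and the mitochondrial carriers that rose each numbered between 0 and 2 (1 as reported in both). The lysosomal count was 0 with DESeq2, with an adjusted p under 0.01, or without control replicate 1 or any 1 DAPT library. It was 2 with limma-voom, the fit that is not robust, library size alone, the replicate block or without control replicate 2. The mitochondrial count was 0 with DESeq2, with an adjusted p under 0.01, or without control replicate 3 or DAPT replicate 2. It was 2 with library size alone.

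When the replicate number entered as a block, 6 transporters rose, and *SLC7A11* had a log2 fold change of 1.58. Deviations of same-numbered libraries correlated at 0.0194, 0.0376 and -0.0193 over 14199 genes, so no shared deviation was seen. These values cannot show whether same-numbered cultures were handled together. The block changed no call of a transporter. Scaling by library size alone moved the median of all tested genes to 0.06. Low counts limit what can be said of *SLC43A1* and of the 22 transporters that were not tested. Of these 22, 9 had 0 counts in all libraries. Whether depth or low expression accounts for the low counts was not tested.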

Other observations

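Of 10 transporters of lysosomes and related membranes, all tested, 1 rose and 0 fell, beside 17.2% and 18.0% of all tested genes. It was *SLC15A3* (log2 fold change 0.23, adjusted p = 0.0396, edgeR), which did not pass without control replicate 1, when 1 gene of the list passed as lower. *SLC38A9*, the arginine sensor of the lysosome, was at 18.7, 20.1 and 20.2 CPM in the control libraries and 19.4, 20.04 and 21.7 CPM with DAPT, a choice made after its values were seen. Of 8 tested mitochondrial carriers, 3 fell and 1 rose, beside 18.0% and 17.2% of all tested genes. *SLC25A15*, the ornithine carrier, had a log2 fold change of -0.32, *SFXN1*, a serine transporter, of -0.27, *SLC25A13*, an aspartate and glutamate carrier, of -0.24, and *SLC25A38*, a glycine carrier, of 0.23.

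Of 37 genes of mTORC1 and its amino acid sensors, 7 rose and 6 fell, with a median log2 fold change of 0.02. These shares are near the 17.2% and 18.0% of all tested genes, so the counts are no result about the list, and its genes are given as values. The decreases with the largest fold changes were those of *SESN3*, from 255 ± 23.2 to 145.5 ± 7.42 CPM (SD, n = 3 each; log2 fold change -0.81, adjusted p = 2.44e-09, edgeR), and *FNIP2* (-0.52). *SESN3* belongs to the sestrins, which inhibit mTORC1, and its relative *SESN2*, listed with the amino acid response and named after its values were seen, rose (log2 fold change 0.82). Smaller decreases were those of *RRAGA* (-0.26) and *LAMTOR5* (-0.25). The increases were led by *TSC2* (0.33), *MIOS* (0.30), *FNIP1* (0.23) and *RRAGC* (0.22). Another gene on the same strand shares 23.1% of the exonic bases of *RRAGC*, so its level is uncertain to that extent. Without control replicate 3, only 2 of the 37 passed as higher.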
